A study of Homo sapiens with 5 samples.

Results

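The genes for the proteins of the cytosolic ribosome were examined in CUT&Tag peak lists for FOXO3A from 2 human leukemia cell lines, U-937 and THP-1. Members were the protein-coding genes of the RefSeq table for hg38 (GRCh38.p14) whose symbols are RPL or RPS followed by a number, with or without a suffix, together with RPLP0, RPLP1, RPLP2 and RPSA. RPS6K kinases, RPS19BP1, read-through genes and pseudogenes were left out. The rule took 87 of 19866 protein-coding genes, 53 of the large subunit and 34 of the small subunit. It did not take FAU and RACK1, which encode other parts of the ribosome, and neither had a peak within 1000 bp in either line.

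In CUT&Tag an antibody brings a transposase to the chromatin around its target, and the DNA cut there is sequenced. U-937 and THP-1 are established lines with monocytic features that the labels class as acute myeloid leukemia. Both were grown in serum-containing RPMI1640, no treatment or genetic change is given in the labels, and all libraries used the same FOXO3A antibody. U-937 had 2 libraries and THP-1 had 3, and only replicate 1 of each line held peaks (2272 in U-937 and 1282 in THP-1, of which 1037 lay on chromosomes). The other 3 libraries held none, no control library was used here and the read depth is unknown. Every value below therefore comes from 1 library per line, has no replicate check and was not tested. The peak lists hold no expression values, so the labelled cell type was not checked against markers.

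The ribosome is assembled in the nucleolus and cytoplasm from ribosomal RNA and a nearly equal amount of each ribosomal protein. The large subunit forms the peptide bonds and holds the exit tunnel, and the small subunit reads the mRNA. Ribosomal protein genes are short, are transcribed strongly in growing cells, and often start at a C within a run of pyrimidines, the terminal oligopyrimidine tract through which mTOR signalling controls their translation. FOXO3A is a forkhead factor that AKT, acting in the same growth pathway, keeps out of the nucleus.

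Ribosomal protein genes carried peaks in the U-937 list and none in the THP-1 list. A boundary peak, meaning a summit within 1000 bp of the start or end of a gene, lay at 17 of 87 members (19.5%) in U-937, where 7.02% of all protein-coding genes had one. In THP-1 it lay at 0 of 87 members, where 0.221% of all protein-coding genes had one. The THP-1 list had peaks at only 44 protein-coding genes in all, so its count of 0 for 87 genes is near its background. As the lists came from different libraries with different widths and thresholds, the lines were not tested against each other.

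Both subunits were represented in U-937. The members with a peak were 10 of 53 large subunit genes (18.9%) and 7 of 34 small subunit genes (20.6%), and RPS9 had 2 peaks, which makes 18 peaks at 17 genes. At a -log10 q of at least 5 the U-937 count was 7 of 87 members (8.05%), against 3.93% of protein-coding genes. Among them were RPL7, RPL21, RPL35 and RPL39 of the large subunit, and RPS12 and RPS23 of the small subunit. The window mattered less: 17 members had a peak within 500 bp (6.23% of protein-coding genes) and 18 within 3000 bp (8.22%). With any base of the peak counted it was 17 members (7.17% of protein-coding genes), and at starts only, 13 of 70 members with a known strand (18.6%, against 7.25%).

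**Figure D1:**
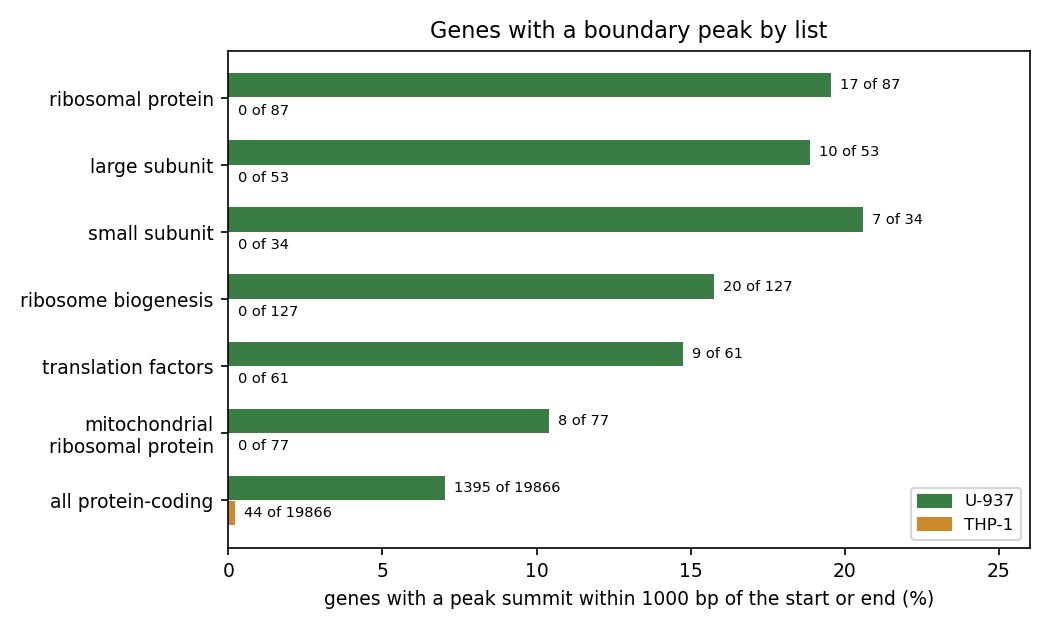
Horizontal bars give the percentage of genes in each list with a peak summit within 1000 bp of the gene start or end, in U-937 (upper bar) and THP-1 (lower bar), with counts at the bar ends. Ribosomal protein genes stand at 17 of 87 in U-937, and THP-1 shows 0 in every list but that of all protein-coding genes.

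Most of these peaks lay just upstream of a gene start. The strand, and with it which boundary is the start, was taken from the RefSeq promoter table, which held 70 of the 87 members and 14 of the 17 with a peak. Of the 15 U-937 peaks at those 14 genes, 13 (86.7%) were nearer the start and 2 the end, whereas 94.9% of the 1218 gene and peak pairs of all protein-coding genes were at the start. The summit was upstream of the start in 11 of the 13 peaks (84.6%), against 70.4% of start pairs over all protein-coding genes. Summits ranged from 411 bp upstream (RPL28) to 113 bp downstream (RPSA), with a median 176 bp upstream. For RPL7 and RPL39L the strand was not taken from any table here, and their distances are given without a direction.

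**Figure D2:**
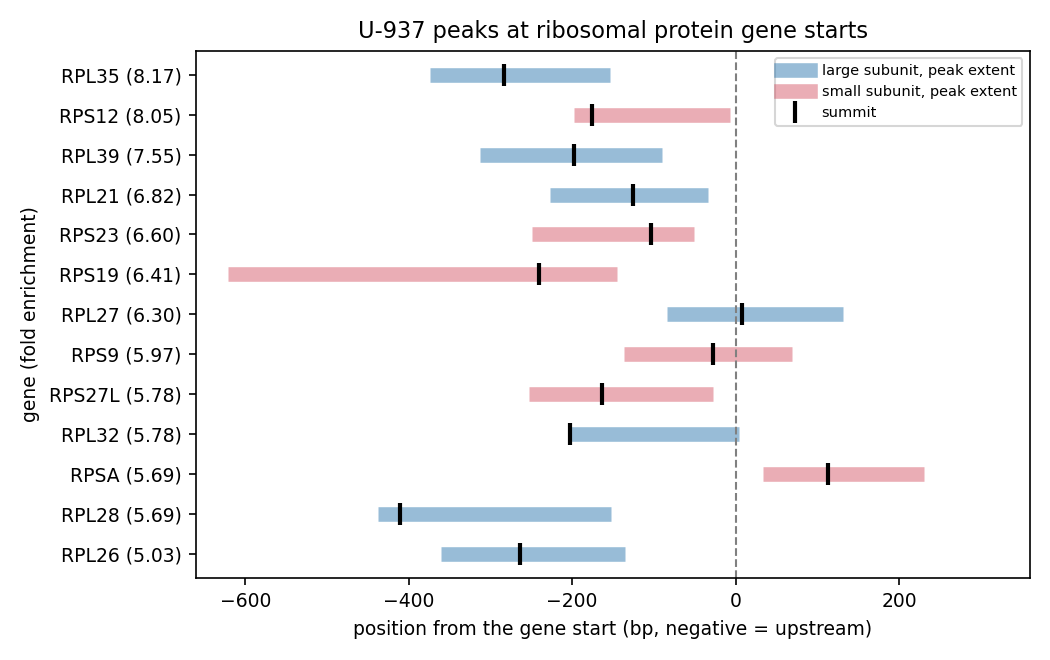
Each bar spans a U-937 peak by its distance in bp from the start of the ribosomal protein gene (dashed line, negative is upstream), in order of the authors' fold enrichment, which is given beside each name. Black ticks are summits. Of these 13 peaks, the summits at RPL27 and RPSA are the only ones downstream of the start.

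The sequences at some of the stronger member peaks show part of what lies under them. Given here for 3 genes of each subunit, chosen by fold among those in the promoter table, are the 250 bases before the RefSeq start and the first 20 transcribed bases, from the GRCh38.p14 promoter table, in the direction of the gene. Capitals mark the bases inside the U-937 peak, and the peak can run on beyond the printed window. The windows are chr9:124861938-124862207 on the minus strand for RPL35, chrX:119791611-119791880 on the minus strand for RPL39, chr13:27251308-27251577 on the plus strand for RPL21, chr6:132814319-132814588 on the plus strand for RPS12, chr5:82278335-82278604 on the minus strand for RPS23 and chr19:41860005-41860274 on the plus strand for RPS19.
RPL35: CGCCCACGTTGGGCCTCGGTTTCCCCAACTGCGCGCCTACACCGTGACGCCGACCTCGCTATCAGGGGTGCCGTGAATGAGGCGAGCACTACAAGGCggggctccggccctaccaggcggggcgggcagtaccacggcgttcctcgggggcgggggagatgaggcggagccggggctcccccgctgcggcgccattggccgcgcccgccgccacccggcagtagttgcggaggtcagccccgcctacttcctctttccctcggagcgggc
RPL39: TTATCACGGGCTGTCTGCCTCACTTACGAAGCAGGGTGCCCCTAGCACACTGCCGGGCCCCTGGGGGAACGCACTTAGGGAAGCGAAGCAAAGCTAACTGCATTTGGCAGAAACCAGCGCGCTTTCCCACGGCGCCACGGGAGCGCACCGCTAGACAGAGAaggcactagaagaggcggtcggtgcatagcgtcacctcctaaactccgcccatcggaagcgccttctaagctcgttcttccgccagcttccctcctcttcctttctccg
RPL21: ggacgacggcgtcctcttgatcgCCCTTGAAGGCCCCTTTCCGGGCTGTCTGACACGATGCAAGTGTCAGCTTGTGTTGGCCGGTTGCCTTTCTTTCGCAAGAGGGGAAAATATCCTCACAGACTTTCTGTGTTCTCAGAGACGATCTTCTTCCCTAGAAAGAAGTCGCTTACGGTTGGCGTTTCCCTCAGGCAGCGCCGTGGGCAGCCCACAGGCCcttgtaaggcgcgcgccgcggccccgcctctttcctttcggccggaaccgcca
RPS12: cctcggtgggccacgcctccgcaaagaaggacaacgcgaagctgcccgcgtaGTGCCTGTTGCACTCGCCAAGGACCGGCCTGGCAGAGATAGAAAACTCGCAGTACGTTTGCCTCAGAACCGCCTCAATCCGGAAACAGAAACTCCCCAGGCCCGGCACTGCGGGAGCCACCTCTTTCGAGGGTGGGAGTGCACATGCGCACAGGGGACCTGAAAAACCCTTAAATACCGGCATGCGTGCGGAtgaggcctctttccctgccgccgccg
RPS23: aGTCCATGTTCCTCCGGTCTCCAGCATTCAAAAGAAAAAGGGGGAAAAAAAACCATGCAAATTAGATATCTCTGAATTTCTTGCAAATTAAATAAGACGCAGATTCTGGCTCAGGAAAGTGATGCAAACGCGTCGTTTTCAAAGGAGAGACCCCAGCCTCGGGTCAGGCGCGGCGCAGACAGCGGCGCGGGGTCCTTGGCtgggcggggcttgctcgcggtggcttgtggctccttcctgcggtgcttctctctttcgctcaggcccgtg
RPS19: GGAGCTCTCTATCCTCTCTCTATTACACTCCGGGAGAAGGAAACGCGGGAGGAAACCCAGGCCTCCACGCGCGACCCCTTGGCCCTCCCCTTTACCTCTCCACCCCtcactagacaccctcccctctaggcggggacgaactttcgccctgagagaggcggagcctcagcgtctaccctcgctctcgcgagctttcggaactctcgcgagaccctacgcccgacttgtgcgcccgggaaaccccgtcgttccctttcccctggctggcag
In all 6 the last capital precedes the start, so the peak lay wholly in DNA that is not transcribed from that start. The peak covered 97 of the 270 printed bases at RPL35, 161 at RPL39, 194 at RPL21, 192 at RPS12, 199 at RPS23 and 106 at RPS19. Each of the 6 starts at C, followed in lower case by the pyrimidine tract, which is 11 bases long at RPL35, 19 at RPL39, 6 at RPL21, 10 at RPS12, 7 at RPS23 and 11 at RPS19.

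Among large subunit genes the highest fold was at RPL7. Its U-937 peak lay on chromosome 8 at 73293728 to 73294460 with a fold enrichment of 8.34 (the authors' value, a ratio to a background they do not describe) with a -log10 q of 8.41. At 733 bp it was the widest peak of any member. The summit was inside the gene, 430 bp from its upper end and 566 bp from RDH10, a retinol dehydrogenase gene whose boundary falls in the same window.

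RPL35, whose protein sits beside the exit tunnel, had a peak on chromosome 9 at 124862111 to 124862331 with a fold of 8.17 and a -log10 q of 7.96. Its summit was 283 bp upstream of RPL35 but 110 bp from ARPC5L, which encodes a subunit of the actin-nucleating ARP2/3 complex. The ARPC5L boundary at 124862130 fell within the peak, so this was the only one of the 18 peaks that lay closer to another protein-coding gene than to the member.

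RPL39, which encodes a small protein that lines the exit tunnel, had a fold of 7.55 and a -log10 q of 7.34, with its summit 198 bp upstream. Its peak on chromosome X at 119791720 to 119791943 was 224 bp wide and held no other protein-coding boundary within 1000 bp. RPL21 had a fold of 6.82 and a -log10 q of 6.21, with the summit 125 bp upstream on chromosome 13 at 27251433.

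The other large subunit genes had a -log10 q under 5. RPL27 and RPL4 both had a fold of 6.30 and a -log10 q of 4.93, at opposite parts of the gene. The RPL27 summit lay 8 bp inside the start, on chromosome 17 at 42998281. The RPL4 peak, on chromosome 15 at 66497868 to 66498095, lay instead at the 3' end, with a summit 38 bp beyond it. SNAPC5, which encodes a subunit of the factor that recruits polymerase to small nuclear RNA genes, had a boundary 215 bp from that summit.

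RPL32 (fold 5.78, -log10 q 4.30) and RPL28 (fold 5.69, -log10 q 4.07) had summits 202 and 411 bp upstream. In both the summit lay near the edge of the peak, 1 bp from it at RPL32 and 27 bp at RPL28, as it did at RPS12 (22 bp), while 6.51% of all U-937 summits lay within 30 bp of an edge. RPL26, whose protein also binds the p53 mRNA, had a fold of 5.03 and a -log10 q of 3.23, 264 bp upstream. RPL39L, a copy of RPL39 known for its expression in testis, had the lowest value of the list, a fold of 2.89 and a -log10 q of 1.56, with a summit 167 bp outside the gene. That fold, the lowest of the list, and its p-value were shared by 164 of the 2272 peaks.

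Of the small subunit genes, RPS12 had a fold of 8.05 and a -log10 q of 7.75, and its summit was 176 bp upstream on chromosome 6 at 132814393. RPS23, whose protein lies at the decoding centre, had a fold of 6.60 and a -log10 q of 5.63, 103 bp upstream on chromosome 5 at 82278457. Neither had another protein-coding boundary within 1000 bp.

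RPS19, the gene most often mutated in Diamond-Blackfan anaemia, had a 477 bp peak on chromosome 19 at 41859634 to 41860110, with a fold of 6.41 and a -log10 q of 4.93. RPS9, whose protein contributes to the accuracy of decoding, was the only member with 2 peaks. The peak at its start had a fold of 5.97 and a summit 27 bp upstream, and the peak at its end a fold of 5.77 and a summit 645 bp beyond the gene. The peak at the end was the farthest of all member summits within the window.

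RPS27L, a p53-induced copy of RPS27, had a fold of 5.78 and a -log10 q of 4.30, 164 bp upstream, whereas the nearest summit to RPS27 was 67626 bp away. RPSA, whose protein is also known as a laminin receptor, had a fold of 5.69 and a summit 113 bp downstream of the start. Just outside the window RPL17 had a peak 1317 bp from a boundary, with a fold of 3.59 and a -log10 q of 1.65. No other member had a summit between 1000 and 3000 bp in U-937, and none did in THP-1.

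By strength the members' peaks lay within the range of U-937 boundary peaks, with medians somewhat lower. The median fold was 6.30 over the 18 peaks and 6.59 over all 1110 boundary peaks of protein-coding genes, and 7 of the 18 exceeded 6.59. The median -log10 q was 4.93 against 5.38, and 7 of the 18 (38.9%) reached 5, against 612 of the 1110 (55.1%). The median width was 222.5 bp against 252 bp, and 14 of the 18 were narrower than 252 bp. The subunits overlapped, with a median fold of 6.30 in the large (range 2.89 to 8.34) and 6.19 in the small (lowest 5.69). Their median widths were 222.5 bp (range 194 to 733) and 216.5 bp (range 192 to 477), and their median distances to the boundary 200 and 170 bp, in the same order.

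**Figure D3:**
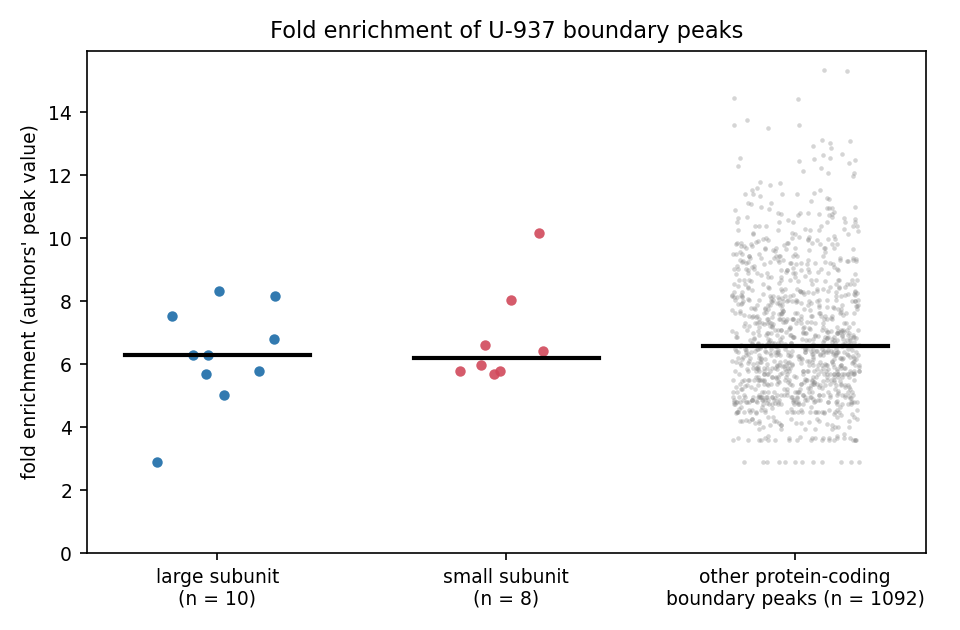
Points are U-937 peaks within 1000 bp of a gene boundary, by the authors' fold enrichment, for large subunit genes, small subunit genes and the 1092 other boundary peaks of protein-coding genes. Black lines are medians, and points are spread sideways only for legibility. The large and small subunit points lie within the range of the other peaks.

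The folds came in steps, which limits how finely members can be ranked. The 2272 U-937 peaks held 529 distinct folds, and 3 pairs of members had the same fold, p and q. These were RPL27 with RPL4, RPL32 with RPS27L, and RPL28 with RPSA. Fold 6.30 of the first pair was shared by 24 peaks of the list, and fold 5.69 of the last by 37.

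The members with a peak were spread over 10 chromosomes, of the 22 that hold a member. Chromosome 19 held 4 of the 17, among them RPS9, RPS19 and RPL28. There 4 of 12 members had a peak (33.3%), against 13.1% of all protein-coding genes of that chromosome. On other chromosomes 13 of 75 did (17.3%), against 6.56% of protein-coding genes. The member share was thus above that of all genes both on and off chromosome 19.

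Few of the peaks were shared with a neighbouring protein-coding gene. At RPL39 and RPS12 a long non-coding RNA gene had a boundary within 1000 bp of the summit. A second protein-coding boundary lay within 1000 bp of the summit in 3 of 18 peaks (16.7%), those at RPL4, RPL7 and RPL35, against 291 of 1110 boundary peaks of all protein-coding genes (26.2%). With each peak given only to its nearest protein-coding gene, 16 of 87 members had one (18.4%), against 5.61% of protein-coding genes, the loss being RPL35. Of the 10 copies of other members, with an L suffix or on chromosome Y, 2 had a peak, RPL39L and RPS27L. That share is close to the 15 of 77 (19.5%) among members that are not copies. The U-937 list had no peak on chromosome Y.

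Many ribosomal protein genes carry small nucleolar RNA (snoRNA) genes in their introns, which guide the chemical modification of ribosomal RNA. A snoRNA gene lay within the span of 29 members, and 8 of these had a peak in U-937 (27.6%), among them RPL4, RPL21, RPL28, RPL32, RPL39, RPS12 and RPSA. Of the 58 members without one, 9 had a peak (15.5%). Over all protein-coding genes with a snoRNA gene in their span, 57 of 523 had a peak (10.9%). The peaks overlapped 0 snoRNA genes.

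The promoters of members with a peak resembled those of other members in base composition. In the 300 bases of the promoter table (250 before the start and 50 from it) the median GC content was 59.7% in the 14 members with a peak, 59.0% in the 56 without one and 62.7% over 15842 protein-coding genes. Here and below a peak can be at either end of the gene, and the 14 include RPL4, whose only peak lay away from its promoter. Among promoters with a GC content of at least 55% and an observed to expected CpG ratio of at least 0.6, 12 of 52 members had a peak (23.1%), against 10.5% of protein-coding genes. Among promoters of other composition it was 2 of 18 members (11.1%), against 3.34%. Genes with GC-rich promoters thus had boundary peaks more often, among members and among all genes, and the part of base composition in the member share was not tested.

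The forkhead forms searched were rare in every group of promoters, and other forkhead forms were not searched. The motif GTAAACA, searched on both strands like all others, was in the promoters of 0 of 14 members with a peak and 0 of 56 without one. It was in 423 of 15842 protein-coding promoters (2.67%) and in 20 of 1188 other genes with a U-937 peak (1.68%). A second form, TGTTTGC, was in 0 of 14, in 1 of 56 (RPL37A) and in 3.18% of protein-coding promoters. It was in 28 of the 1188 other genes with a peak (2.36%). At such shares the counts of 0 in 14 promoters are near the background. The windows held the summit of 9 of the 13 peaks at member starts, so sequence under part of the peaks was not searched.

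Other promoter motifs were present at varied shares. The SP/KLF motif GGGCGG was in the promoters of 9 of 14 members with a peak (64.3%), among them RPL4, whose peak lay at its other end. It was in 28 of 56 without one (50.0%) and 58.3% of protein-coding promoters. The ETS motif CCGGAAG was in 3 of 14 (21.4%), at RPL26, RPL32 and RPS27L, in 20 of 56 (35.7%) and in 14.2% of protein-coding promoters. The YY1 motif AAGATGGC was in 1 of 14 (RPL21), in 6 of 56 (10.7%) and in 3.86%. The E-box CACGTG was in 0 of 14, 4 of 56 and 8.82%, and TATAAA in 0 of 14, 7 of 56 and 9.75%. No motif contains another on either strand, although matches can overlap at their ends.

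The pyrimidine start marked members with and without a peak alike. A C at the start followed by pyrimidines to a run of at least 5 was in 10 of 14 members with a peak (71.4%), 34 of 56 without one (60.7%) and 4.59% of protein-coding promoters. RPL4, RPL27, RPL32 and RPS27L were the 4 with a peak that did not have it at the RefSeq start used. The hexamer CTTTCC was in 8 of 14 (57.1%), 23 of 56 (41.1%) and 26.4%. It began 3 bases into the transcript at RPL28, RPL35, RPS12 and RPS19.

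**Figure D4:**
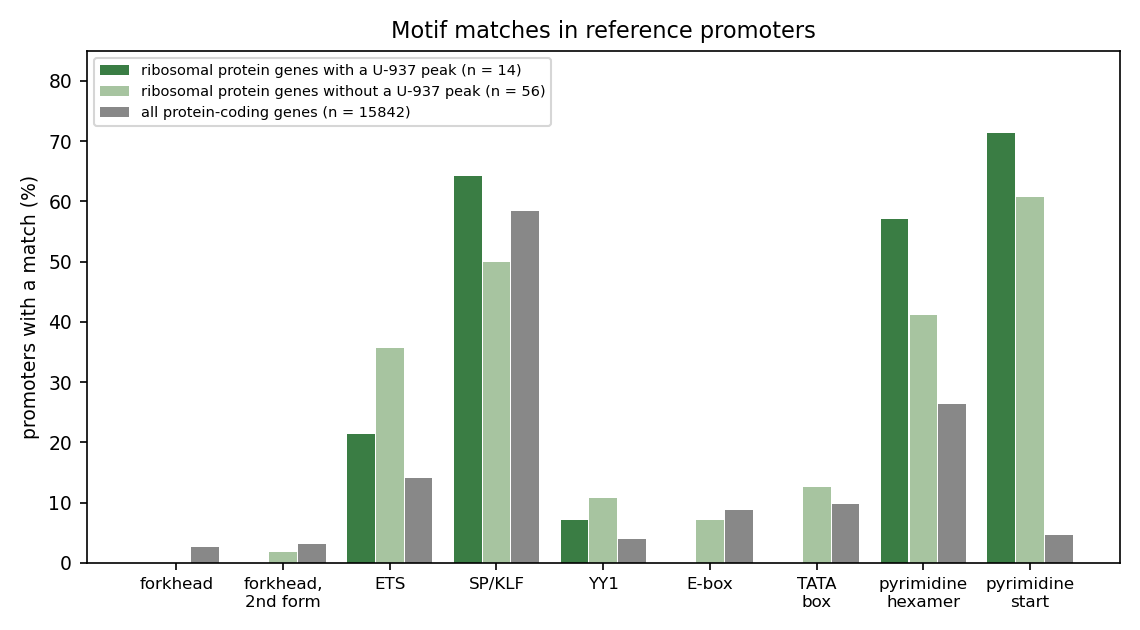
Bars give the percentage of reference promoters (300 bases) that hold each motif on either strand, or a C start with a pyrimidine run of at least 5, for ribosomal protein genes with a U-937 boundary peak, those without one and all protein-coding genes. The forkhead bars are low in every group and at 0 for members with a peak. The pyrimidine start stands at 71.4% and 60.7% of members against 4.59% of all genes.

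The 70 members without a U-937 boundary peak ranged widely in their distance to the nearest summit. No distance could be had for RPS4Y1 and RPS4Y2, as the U-937 list has no peak on chromosome Y. For the others the lowest was 1317 bp (RPL17), the median 170195 bp and the highest 5471308 bp (RPS3A). Members chosen for naming after their values were seen include RPL11 and RPL5, which with 5S RNA restrain MDM2, at 283701 and 1576297 bp. RPS6, the substrate of S6 kinase, was 221331 bp from a summit, RPS14, which is lost in the 5q- syndrome, 803254 bp, and the stalk gene RPLP0 485831 bp.

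With the genes that had a boundary peak included, U-937 summits were closer to members than to all genes, whereas in THP-1 the median distances were nearly equal. The nearest U-937 summit was within 10000 bp of 23 of 87 members (26.4%), against 11.3% of protein-coding genes, and within 100000 bp of 45 (51.7%), against 33.5%. These shares include the 17 members and the 7.02% of protein-coding genes with a boundary peak, so they are not separate from that count. The median distance, over the same genes, was 86631 bp for members and 226435 bp for all protein-coding genes. In THP-1 the median was 2376956 bp for members and 2387093.5 bp for all protein-coding genes. The closest THP-1 summit to any member was 31726 bp from RPL28, and 2 of 87 members (2.30%) had one within 100000 bp, against 6.32% of protein-coding genes.

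**Figure D5:**
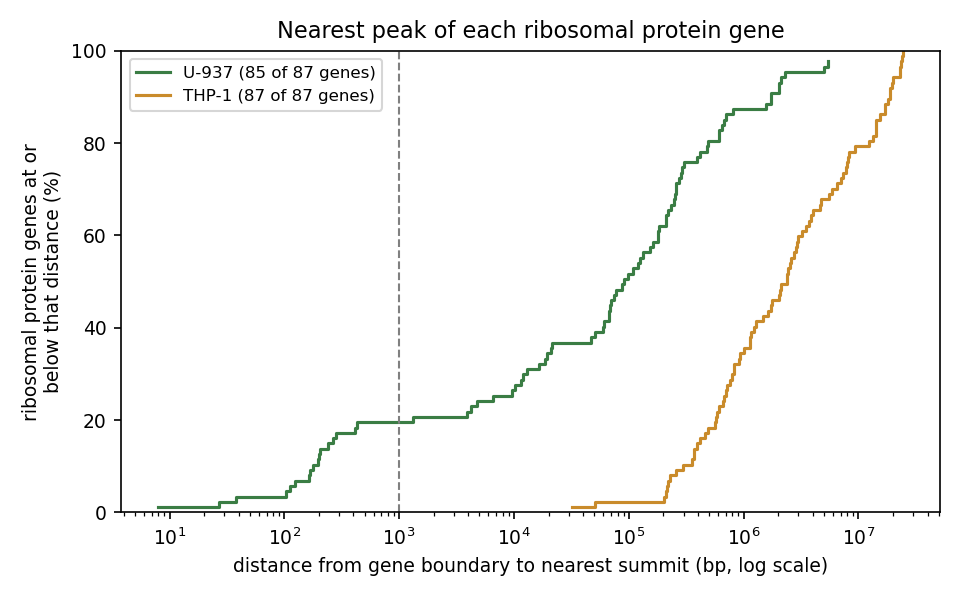
Stepped lines give the cumulative percentage of the 87 ribosomal protein genes whose nearest peak summit lies at or below the distance on the log-scaled axis, in U-937 (85 genes with a peak on their chromosome) and THP-1 (87 genes). The dashed line marks 1000 bp, where the U-937 line stands at 19.5% and the THP-1 line at 0.

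With all listed peaks counted, genes that build ribosomes or serve translation had U-937 boundary peaks at shares between those of ribosomal proteins and of all genes. Ribosome biogenesis genes, which process ribosomal RNA and assemble the subunits, had one at 20 of 127 (15.7%), against 7.02% of protein-coding genes. The 10 with the highest fold were PNO1, DDX49, NPM1, UTP11, NVL, IMP3, UTP18, POLR1B, AAMP and CEBPZ, with folds of 6.30 to 13.8, and RIOK3 tied with CEBPZ at 6.30. PNO1, a small subunit assembly factor, had the highest, above that of all 18 ribosomal protein peaks. NPM1, which encodes nucleophosmin, a nucleolar protein often mutated in acute myeloid leukemia, had a fold of 8.41. With peaks given only to their nearest gene the biogenesis count was 12 of 127 (9.45%), against 5.61%, a larger loss than the 1 of 17 for ribosomal proteins.

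Translation factors had a U-937 boundary peak at 9 of 61 genes (14.8%). These were EIF5A (fold 9.87), EIF2S1 (8.31), EIF1AX, EEF1G, EIF2B3, EIF2B4, EIF4A1, EIF3J and EEF1AKMT1, the last a methyltransferase gene that the symbol rule takes with the factors. Proteins of the mitochondrial ribosome, which translates the mitochondrial genome, had one at 8 of 77 genes (10.4%). They were MRPL54 (fold 11.4), MRPS18B (7.84), MRPL11, MRPS12, MRPL50, MRPL1, MRPS16 and MRPS31. The median folds were 6.30 for ribosomal protein peaks, 6.30 for biogenesis, 6.87 for translation factors and 6.08 for mitochondrial ribosomal proteins. In THP-1 all 3 lists had 0 genes with a boundary peak, against 0.221% of protein-coding genes. At a -log10 q of at least 5 the 6 translation factors from EIF5A to EIF2B4 kept a U-937 peak. That share of the 61 genes is larger than the 8.05% of ribosomal protein genes. Biogenesis genes then stood at 7.09% and all protein-coding genes at 3.93%, so the order of the lists depended on the threshold. The differences between lists were not tested.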

How the data were processed

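FOXO3A CUT&Tag had been run on 2 U-937 and 3 THP-1 libraries. The submitters' processing notes name Bowtie2, Picard and the build hg38, without versions. No source used here names the peak caller or gives the depth, so the precision of a peak is unknown. The authors deposited 1 peak list per library, not pooled, holding a score, a fold enrichment (ratio) and -log10 of p and q per peak, by the narrowPeak layout. In the deposited lists the score followed the -log10 p (all 2272 U-937 peaks) or the -log10 q (1281 of 1282 THP-1 peaks), and 245 THP-1 peaks lay on contigs that were not used, so the lists were made differently.

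Gene spans came from RefSeq (GRCh38.p14), of which 831 of 59792 genes, off the chromosomes or breaking their order, were left out. Positions are counted from 1. Promoter sequences and strands are from RefSeq. Peaks were assigned by summit with Python 3.11.15 and pandas 2.3.3, and 200 of 200 simulated peaks on 19866 genes were returned as planted. Counts are descriptions with no test, as genes are not replicates. Members, lists and motifs were chosen with earlier results of these data known. Named were all members with a peak or with a summit within 3000 bp, coding neighbours, up to 10 genes per list by fold, and promoters of up to 3 genes per subunit. A few genes are counted but not described. Alternatives covered the window, the q threshold, start only, any base of the peak, paralogs and the nearest gene.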

Additional observations from a re-analysis of the deposited data

How the results depend on the processing

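Of 52 values recomputed under 7 alternatives, 45 stayed within 1.5 times the count, or within the order-statistic interval of the median. All are counts or medians, which have no direction that could change. The 7 that moved were 6 at a -log10 q of at least 5 and 1 with each peak given to its nearest gene. At a -log10 q of at least 5, U-937 boundary peaks lay at 7 ribosomal protein genes, 4 of the large and 3 of the small subunit, at 9 biogenesis genes and at 781 protein-coding genes, and the median member fold was 8.05. This alternative keeps fewer peaks by construction. The nearest-gene rule, chosen after seeing the data, left 12 biogenesis genes and 16 ribosomal protein genes. Under the 5 other alternatives the U-937 member count was 13 to 18, the lowest at starts only and 15 of 77 without copies. The THP-1 count was 0 under all 7. No paired analysis was possible because no replicate other than 1 held peaks in either line, and for the same reason no replicate could be left out or tried in its place. Depth limits are unknown, as the lists give no read counts.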
